A study of Mus musculus with 16 samples.

Results

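The S100 genes examined here are S100a1, S100a4, S100a6, S100a8, S100a9, S100a10, S100a11 and S100a13, 8 of the 13982 genes of the expression table. They were taken by gene symbol as members of 1 family of calcium-binding proteins, with earlier results of these data known. S100b and S100g, also of this family and in the table, are not among them. All 8 passed the filter on low values, which asked for at least 1 FPKM (fragment number per length of transcript, scaled to library size) in at least 4 libraries. RNA was sequenced from cells labelled as microglia, which had been stained for CD45 and CD11b and sorted out of the cortex, in 16 libraries of C57BL/6 mice. The 4 Sham libraries, listed as untreated, came from mice without arterial occlusion. The 4 MCAO libraries came from the infarcted cortex after middle cerebral artery occlusion, a model of ischemic stroke. The 4 MCAO+Ctrl-exos and the 4 MCAO+AS-exos libraries came from MCAO mice that also received 150 µg of exosomes, vesicles shed by cells into plasma, through the tail vein every 3 days from surgery onward. Donors of the exosomes were Apoe knockout mice, whose plasma was taken after either western or normal diet. The western diet, given for 12 weeks, was the study's model of atherosclerosis. Which diet stands behind each exosome code is not spelled out in the labels, and neither are the time from surgery to sorting and whether each library is a separate mouse. P-values therefore measure the spread between libraries, which may be technical.

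S100 proteins are small cytosolic proteins with a pair of EF-hand loops. On binding calcium, most of them open a hydrophobic face that docks onto a target protein, so a cell reads a calcium signal partly through the S100 members it holds. Most work as homodimers, S100A8 and S100A9 as the heterodimer calprotectin, and S100A10 as a dimer that no longer needs calcium and bridges annexin A2 molecules. Calprotectin is abundant in neutrophils and monocytes. Outside the cell it binds zinc and manganese and acts as an alarm signal on Toll-like receptor 4 and RAGE. In the healthy brain S100B of astrocytes is the best known member.

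All 8 S100 genes were higher in the MCAO than in the Sham libraries, in a limma fit over all tested genes with Benjamini-Hochberg adjustment and a threshold of 0.05. Among the 10846 tested genes, 24.5% were called higher in that comparison. For 7 of the 8 genes no MCAO value reached into the Sham range, against 33.8% of the tested genes, with S100a1 as the exception. The median log2 fold change of the 8 genes was 7.11, beside 0.25 for all tested genes. Changes fell into 2 sizes: S100a8, S100a6, S100a4, S100a9, S100a10 and S100a11 differed by 5.44 to 9.81 on the log2(FPKM + 1) scale, S100a1 and S100a13 by 1.997 and 1.38. None of the 8 passed the threshold between the 3 groups with MCAO. Fold changes on this scale understate the change of genes near 0 in Sham. S100a6, S100a8 and S100a9 fell below 1 FPKM in some Sham libraries (lowest 0.56, 0.83 and 0.26). They passed the filter only with libraries of the MCAO groups, so a call of lower was hardly open to them. In sorted bulk samples, fewer cells of a type and less RNA per cell cannot be told apart.

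**Figure D1:**
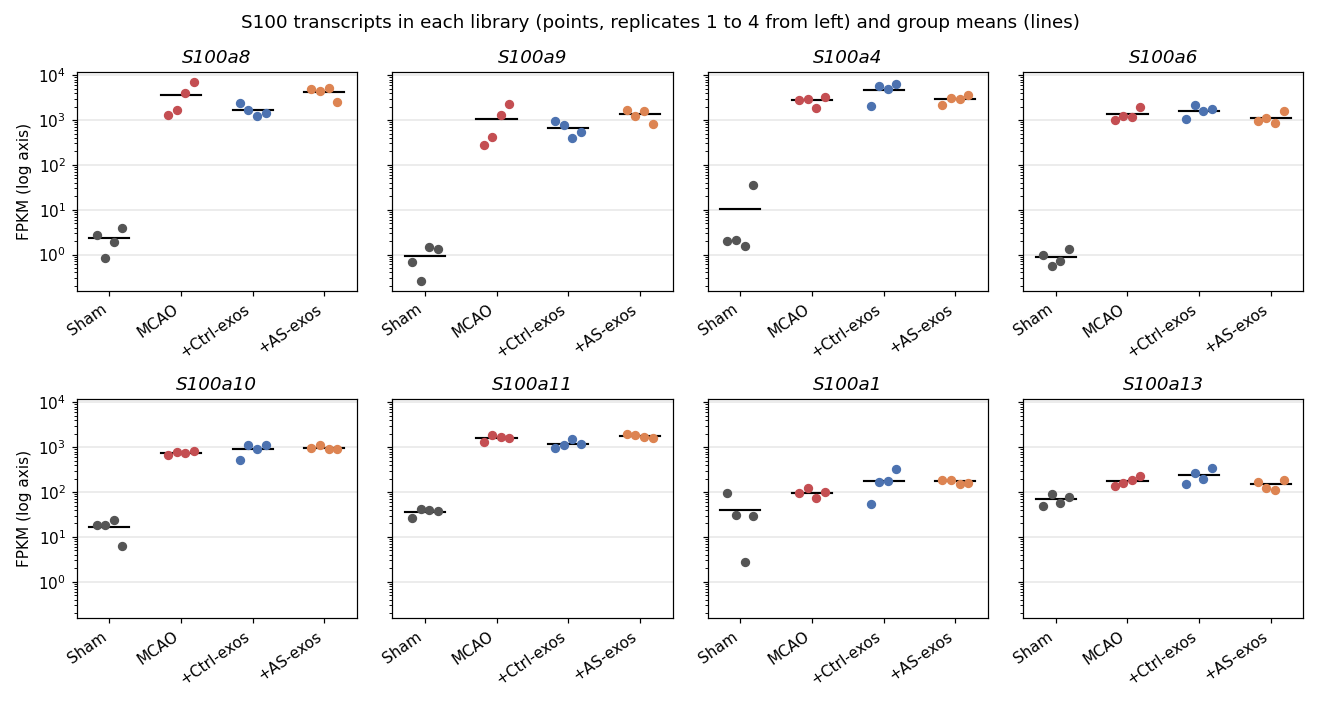
FPKM of the 8 S100 genes (vertical log axis) in each library (points, replicates 1 to 4 from left to right in each group) with the group mean as a line. S100a8 lay between 0.83 and 3.91 in Sham and between 1263.85 and 7115.69 in MCAO, while S100a1 ranges of these groups overlapped.

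The labelled cell type was checked on markers. All 12 homeostatic microglia markers (such as P2ry12 and Tmem119) were measured, and their summed level was 22132 to 24825 FPKM in Sham and 1542 to 2465 in MCAO, with 12 of 12 lower. Monocyte, border macrophage and neutrophil marker sums were higher in every MCAO than in every Sham library. The 14 monocyte markers summed to 215 to 613 FPKM in Sham and 6299 to 11007 in MCAO, with 14 of 14 higher. The border macrophage markers, 9 of 10 in the table, summed to 138 to 222 in Sham and 1761 to 4348 in MCAO, with 7 of 9 higher and 1 lower. Of 15 neutrophil markers (S100a8 and S100a9 not among them) 10 were in the table, and they summed to 73.4 to 139 in Sham and 188 to 566 in MCAO, with 7 of 9 tested higher. Ly6g, the defining surface marker of mouse neutrophils, was listed at 0 in all 8 of these libraries. Other lists were mixed. Cd79b, the 1 of 5 listed B cell markers in the table, was called lower (8.67 to 50.01 FPKM in Sham and 0.25 to 16.82 in MCAO, overlapping), and of 3 tested erythroid markers 1 was lower. Of 7 tested dendritic cell markers 3 were higher and 2 lower, with sums of 71.1 to 116 in Sham and 15.5 to 156 in MCAO, and of 2 tested astrocyte markers 1 was higher and 1 lower. Oligodendrocyte markers, 5 of 6 in the table, summed to 12.96 to 31.43 in Sham and 36.89 to 74.69 in MCAO, with 2 of 3 tested higher. Neuron markers (3 of 5 in the table) and T and NK cell markers (2 of 8) summed to at most 5.65 FPKM in each of the 16 libraries. The part of these cell markers in the S100 differences was not tested.

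S100a8 and S100a9 encode the subunits of calprotectin and lie side by side on chromosome 3. Their promoters are shown because the transcripts moved together across libraries. Each sequence holds the 250 bases before the transcription start, 5′ to 3′ on the gene's own strand, from RefSeq on GRCm38.p6, with motif matches in capitals. The windows are chr3:90668821-90669070 (plus strand) for S100a8 and chr3:90695722-90695971 (minus strand) for S100a9.
S100a8: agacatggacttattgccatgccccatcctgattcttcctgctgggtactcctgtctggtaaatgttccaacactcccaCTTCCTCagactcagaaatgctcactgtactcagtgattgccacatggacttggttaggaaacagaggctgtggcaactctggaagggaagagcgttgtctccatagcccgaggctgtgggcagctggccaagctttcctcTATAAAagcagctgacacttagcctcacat
S100a9: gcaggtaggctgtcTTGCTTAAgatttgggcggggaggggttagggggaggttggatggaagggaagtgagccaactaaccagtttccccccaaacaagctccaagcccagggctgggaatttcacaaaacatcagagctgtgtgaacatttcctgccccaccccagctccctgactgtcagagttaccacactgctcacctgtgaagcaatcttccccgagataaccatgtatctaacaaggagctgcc
The S100a8 window holds TATAAA 30 bases before the start, and CTTCCTC, the reverse strand of the ETS motif GAGGAAG, 171 bases before it. The S100a9 window holds TTGCTTAA 236 bases before the start, which is the C/EBP motif TTNNGCAA on the other strand, and no TATAAA. Over all 32841 promoters of this length, 12.4% hold TATAAA on either strand, and 1.99% hold it on the gene's strand 20 to 40 bases before the start. TTNNGCAA occurs in 9.57% and GAGGAAG in 10.6%, on either strand. None of these letters overlap each other in the windows shown, and a match is a description of the sequence only.

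S100a8 stood at 2.79, 0.83, 1.86 and 3.91 FPKM in Sham replicates 1 to 4 and at 1263.85, 1691.19, 4106.82 and 7115.69 FPKM in the MCAO libraries. Every MCAO library was far above every Sham library, and the MCAO libraries themselves spread widely. S100a8 was 1509.9-fold higher by group means (log2 fold change 9.81 ± 0.43 SE, limma adjusted p 4.27e-13). S100a9 stood at 0.69, 0.26, 1.44 and 1.36 FPKM in Sham and at 275.24, 413.79, 1290.30 and 2331.30 in MCAO. The same MCAO libraries were low and high for both subunits, with replicates 1 and 2 lowest and replicate 4 highest. S100a9 was 1149.5-fold higher by means (log2 fold change 8.68 ± 0.49 SE, limma adjusted p 2.84e-11).

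Both exosome groups kept calprotectin transcripts at the MCAO order of magnitude. S100a8 stood at 2396.80, 1646.58, 1261.33 and 1425.36 FPKM in MCAO+Ctrl-exos and at 4952.34, 4458.63, 5194.89 and 2470.86 in MCAO+AS-exos. The lowest MCAO+AS-exos library, replicate 4, lay just above the highest MCAO+Ctrl-exos library, replicate 1. S100a9 stood at 946.08, 790.79, 388.68 and 542.06 FPKM in MCAO+Ctrl-exos and at 1687.49, 1256.66, 1580.04 and 821.43 in MCAO+AS-exos. For S100a9 those same 2 libraries overlapped.

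The neutrophil marker sum followed the order of S100a8 in 2 of the 4 groups. In the MCAO libraries it was 188, 275, 368 and 566 FPKM in replicates 1 to 4, the same order as S100a8. It was 337, 313, 205 and 273 in MCAO+Ctrl-exos, again in the order of S100a8. In MCAO+AS-exos it was 548, 834, 1443 and 252, with the highest value in replicate 3 and the lowest in replicate 4 for both, while replicates 1 and 2 ran in opposite order. In Sham it was 73.4, 94.5, 95.3 and 139, with replicate 4 highest for both and replicate 1, the lowest sum, next to highest for S100a8. Il1r2, a decoy receptor for interleukin 1 and the largest contributor by mean to the sum in MCAO, stood at 0 to 0.18 FPKM in Sham and 68.95 to 196.35 in MCAO. Csf3r, the receptor of granulocyte colony-stimulating factor, made up most of the Sham sum with 64.74 to 134.05 FPKM and did not pass the test. Ly6g was above 0 in 3 libraries, with 9.25 in MCAO+Ctrl-exos replicate 2 and 2.77 and 1.84 in MCAO+AS-exos replicates 1 and 3. The monocyte marker sum, 24142, 21602, 24125 and 6685 FPKM in MCAO+AS-exos, was also lowest in replicate 4. It ran against S100a8 in MCAO, with 11007, 10707, 8536 and 6299 in replicates 1 to 4. In MCAO+Ctrl-exos it was 7776, 10909, 15822 and 10646, lowest in replicate 1, where S100a8 was highest. The part of these cells in the calprotectin values was not tested.

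**Figure D2:**
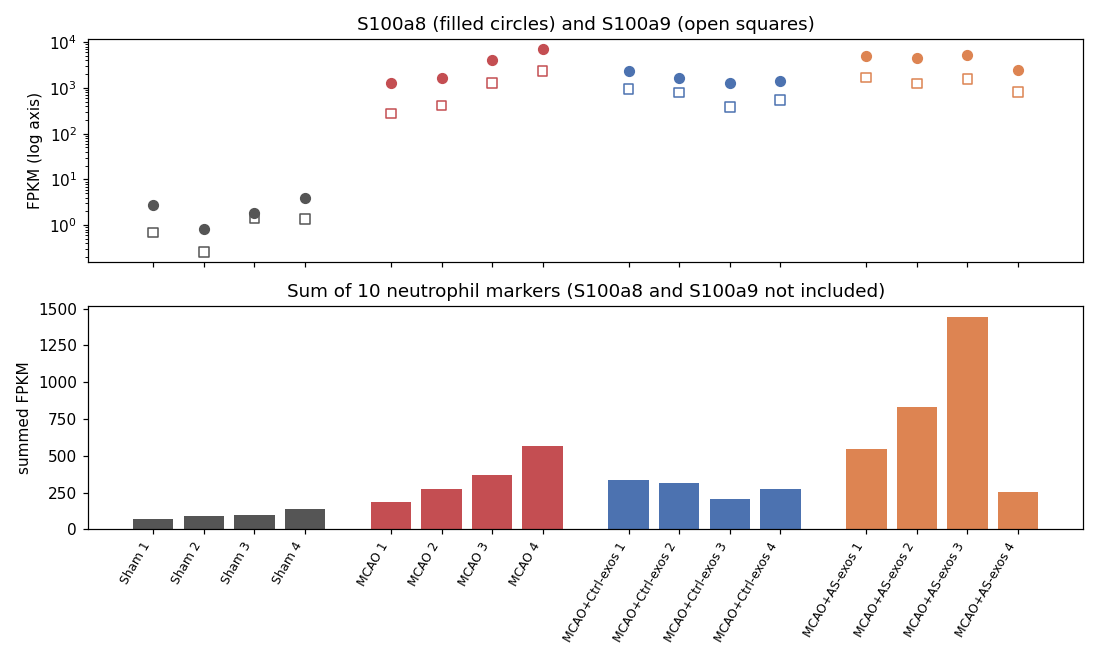
Upper panel, S100a8 (circles) and S100a9 (squares) in FPKM on a log axis for each of the 16 libraries; lower panel, summed FPKM of 10 neutrophil markers without these genes (bars from 0). In the MCAO libraries both panels are lowest in replicate 1 (1263.85 and 275.24 FPKM; sum 188) and highest in replicate 4 (7115.69 and 2331.30; sum 566), and in MCAO+AS-exos both are lowest in replicate 4.

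The subunit ratio was narrower than either level. S100a8 over S100a9, both per length, averaged 3.73 ± 0.737 (SD, n = 4) in MCAO, with 3.05 to 4.59. It averaged 2.62 ± 0.479 in MCAO+Ctrl-exos (2.08 to 3.25) and 3.19 ± 0.280 in MCAO+AS-exos (2.93 to 3.55). Exact two-sided permutation tests over 70 arrangements, whose smallest possible p is 0.0286, gave p = 0.0857 for MCAO+Ctrl-exos against MCAO, 0.257 for MCAO+AS-exos against MCAO and 0.0857 between the exosome groups. After adjustment over the 6 ratio tests run, these exact p-values were 0.257, 0.308 and 0.257. Without MCAO+Ctrl-exos replicate 3, and so over fewer arrangements, the unadjusted exact p between the exosome groups was 0.0286. The other single-library omissions gave unadjusted exact p-values of 0.0857 to 0.2 there. Sham ratios, 1.29 to 4.04, rest on values under 4 FPKM and were not tested.

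S100a4 and S100a6 form the next pair along the chromosome, with S100a5 between them. S100A4, known as metastasin, binds non-muscle myosin IIA and is linked to cell motility, and S100A6, calcyclin, binds the calcyclin-binding protein and SUGT1. The S100a4 promoter is shown because, like that of S100a8, it has a TATAAA close to the start. Its window is chr3:90603520-90603769 (plus strand, RefSeq on GRCm38.p6).
S100a4: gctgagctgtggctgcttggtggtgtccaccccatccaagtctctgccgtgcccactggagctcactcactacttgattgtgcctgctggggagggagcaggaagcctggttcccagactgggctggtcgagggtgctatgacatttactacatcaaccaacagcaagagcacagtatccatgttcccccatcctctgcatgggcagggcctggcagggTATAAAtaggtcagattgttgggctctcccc
TATAAA, in capitals, begins 31 bases before the start of S100a4. The S100a6 window held none of the 5 motifs searched, which says only that these letters are not in those 250 bases.

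S100a4 stood at 2.03, 2.06, 1.54 and 36.27 FPKM in Sham and at 2800.03, 3004.57, 1830.26 and 3337.29 in MCAO. Sham replicate 4 stood apart from the other Sham libraries, and every MCAO value was above it. S100a4 was 262-fold higher by means (log2 fold change 8.94 ± 0.59 SE, limma adjusted p 3.03e-10). Without Sham replicate 4 the log2 fold change was 9.87. The exosome groups stood at 2103.68, 5676.11, 4893.07 and 6474.56 FPKM (MCAO+Ctrl-exos) and at 2209.43, 3118.03, 2873.42 and 3700.86 (MCAO+AS-exos). In MCAO+Ctrl-exos replicate 1 was low and the other 3 libraries exceeded every MCAO and MCAO+AS-exos library.

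S100a6 was near the floor in Sham, at 0.98, 0.56, 0.73 and 1.34 FPKM, and at 1015.97, 1258.29, 1162.32 and 1976.34 in MCAO. All 4 MCAO values lay far above Sham, and the adjusted p was the smallest of the 8 genes. S100a6 was 1499-fold higher by means (log2 fold change 9.44 ± 0.26 SE, limma adjusted p 1.04e-15). It stood at 1032.95, 2140.54, 1570.26 and 1750.09 FPKM in MCAO+Ctrl-exos and at 950.81, 1124.63, 873.91 and 1585.19 in MCAO+AS-exos. As for S100a4, MCAO+Ctrl-exos replicate 1 was the lowest of its group.

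S100a10 and S100a11 lie next to each other further along chromosome 3 and were already above 6 FPKM in every Sham library. S100A10, also called p11, joins annexin A2 in a tetramer that brings plasminogen and its activators to the cell surface, and S100A11 binds annexin A1. RefSeq's promoter table gave the S100a11 window, chr3:93520246-93520495 (plus strand, GRCm38.p6), shown because it holds more motif matches than the others, while S100a10 was not matched.
S100a11: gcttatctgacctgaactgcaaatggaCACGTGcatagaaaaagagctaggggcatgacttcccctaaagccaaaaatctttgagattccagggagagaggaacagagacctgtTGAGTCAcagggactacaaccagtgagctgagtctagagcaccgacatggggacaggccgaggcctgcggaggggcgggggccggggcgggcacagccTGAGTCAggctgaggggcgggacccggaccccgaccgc
The AP-1 motif TGANTCA occurs as TGAGTCA 136 and 38 bases before the start, and 6.75% of all promoters hold TGANTCA on either strand. The letters CACGTG, 223 bases before the start, contain the hypoxia response core ACGTG on both strands in overlap, and 16.6% of promoters hold that core.

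S100a10 stood at 18.27, 18.38, 24.46 and 6.25 FPKM in Sham and at 659.51, 765.91, 756.12 and 829.05 in MCAO. The MCAO libraries were close to each other, and replicate 4 was the lowest Sham library. S100a10 was 44.7-fold higher by means (log2 fold change 5.53 ± 0.31 SE, limma adjusted p 2.64e-11). Its exosome group values were 523.72, 1152.16, 928.48 and 1116.87 FPKM (MCAO+Ctrl-exos) and 942.58, 1129.82, 912.19 and 913.59 (MCAO+AS-exos). All 4 MCAO+AS-exos libraries lay above all 4 MCAO libraries, while MCAO+Ctrl-exos spanned both sides.

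S100a11 stood at 26.06, 43.08, 39.86 and 37.16 FPKM in Sham and at 1278.71, 1900.46, 1718.36 and 1593.75 in MCAO. Both groups were tight and far apart. S100a11 was 44.4-fold higher by means (log2 fold change 5.44 ± 0.20 SE, limma adjusted p 3.73e-14). It stood at 963.50, 1106.12, 1566.29 and 1206.79 FPKM in MCAO+Ctrl-exos and at 1965.26, 1888.16, 1715.84 and 1598.07 in MCAO+AS-exos. Every MCAO+AS-exos library was above every MCAO+Ctrl-exos library, with replicate 4 of the former and replicate 3 of the latter nearly touching. A processed copy of S100a11 exists in the mouse genome, and how its reads were shared is not stated in the labels.

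S100a1 and S100a13 lie head to head on opposite strands at the start of the cluster, and their whole annotated extents overlap. From the starts used for the windows below, they run away from each other. S100A1 is best known from heart muscle, where it acts on calcium handling, and S100A13 takes part in the release of FGF1 and interleukin 1 alpha, proteins without a signal peptide. Whether counting used strand is not stated in the labels, so reads from the overlap of the extents cannot be told apart. The S100a13 window is chr3:90514185-90514434 (plus strand, RefSeq on GRCm38.p6) and shares 104 bases with that of S100a1, chr3:90514331-90514580 (minus strand). It is shown as the contrast to the TATAAA promoters above.
S100a13: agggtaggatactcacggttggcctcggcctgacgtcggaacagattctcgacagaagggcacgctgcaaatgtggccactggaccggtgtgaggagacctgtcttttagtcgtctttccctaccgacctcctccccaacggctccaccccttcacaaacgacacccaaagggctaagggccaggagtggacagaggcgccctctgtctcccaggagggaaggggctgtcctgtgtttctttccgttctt
None of the 5 motifs occurs in it. It has 13 CpG, beside a median of 6 over all promoters of this length. The other windows hold 2 each in S100a8, S100a9 and S100a4, 3 in S100a6, 8 in S100a1 and 11 in S100a11. TATAAA is also absent from the windows of S100a1, S100a6, S100a9 and S100a11.

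S100a1 stood at 94.95, 31.56, 2.71 and 29.28 FPKM in Sham and at 94.87, 124.89, 73.28 and 98.44 in MCAO. The highest Sham library, replicate 1, lay inside the MCAO range. S100a1 was 2.47-fold higher by means (log2 fold change 1.997 ± 0.66 SE, limma adjusted p 0.0211). Without Sham replicate 3, the lowest library, the log2 fold change was 1.09 (limma adjusted p 0.0725), and without MCAO replicate 2 it was 1.87 (limma adjusted p 0.0512). Without Sham replicate 1, the highest Sham library, it was 2.66 (limma adjusted p 0.00179). The exosome groups stood at 53.29, 166.09, 173.04 and 329.21 FPKM (MCAO+Ctrl-exos) and at 189.51, 191.11, 150.87 and 163.31 (MCAO+AS-exos). The MCAO+AS-exos libraries were close together and all above MCAO, while MCAO+Ctrl-exos spanned both of these ranges. Relative to its mean, Sham was the most scattered of the 4 groups (coefficient of variation 98.8%, beside 62.8% in MCAO+Ctrl-exos).

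S100a13 stood at 49.85, 91.91, 57.45 and 77.22 FPKM in Sham and at 139.34, 160.67, 184.72 and 233.89 in MCAO. It was the highest S100 gene in Sham by mean, and the groups did not overlap. S100a13 was 2.60-fold higher (log2 fold change 1.38 ± 0.28 SE, limma adjusted p 6.19e-04). It stood at 154.50, 266.91, 193.26 and 345.96 FPKM in MCAO+Ctrl-exos and at 170.26, 124.62, 109.46 and 188.78 in MCAO+AS-exos, which overlapped each other and MCAO.

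The order of levels, on the FPKM scale per transcript length, turned over with MCAO. In Sham it ran, by mean, S100a13 (69.1 ± 19.1, SD, n = 4), S100a1 (39.6 ± 39.1), S100a11 (36.5 ± 7.39), S100a10 (16.8 ± 7.63), S100a4 (10.5 ± 17.2), S100a8 (2.35 ± 1.31), S100a9 (0.938 ± 0.563) and S100a6 (0.902 ± 0.339). Of the neighbours in that order, S100a11 and S100a10 had ranges that did not overlap, and the other neighbours overlapped. In MCAO the order was S100a8 (3544 ± 2690), S100a4 (2743 ± 648), S100a11 (1623 ± 262), S100a6 (1353 ± 427), S100a9 (1078 ± 949), S100a10 (753, with 659.51 to 829.05 over the 4 libraries), S100a13 (180 ± 40.6) and S100a1 (97.9 ± 21.2). There S100a10 was separate from S100a13, and S100a13 from S100a1, while the first 6 formed an overlapping series. S100a4 led in MCAO+Ctrl-exos with 4787 ± 1902, above S100a8 with 1683 ± 502 in 3 of 4 libraries. S100a8 led in MCAO+AS-exos with 4269 ± 1237, above S100a4 with 2975 ± 617 in 3 of 4 libraries.

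Together the 8 transcripts made up 0.0226 ± 0.00415% (SD, n = 4) of the summed FPKM in Sham, 1.42 ± 0.474% in MCAO, 1.22 ± 0.143% in MCAO+Ctrl-exos and 1.48 ± 0.129% in MCAO+AS-exos. Calprotectin's share of that S100 total differed between libraries of 1 group. S100a8 and S100a9 held 20.4, 22.6, 48.5 and 53.9% of it in the MCAO libraries, 40.9, 18.8, 15.0 and 14.9% in MCAO+Ctrl-exos and 50.8, 43.0, 50.5 and 28.8% in MCAO+AS-exos. By this share alone, MCAO replicates 1 and 2 were closer to most MCAO+Ctrl-exos libraries, and MCAO replicates 3 and 4 to MCAO+AS-exos replicates 1 to 3.

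Between MCAO+Ctrl-exos and MCAO, none of the 8 S100 genes passed (limma, adjusted p below 0.05), and 0.0738% of tested genes did. At an unadjusted p below 0.05 the count was 1 of 8, S100a11, beside 10.9% of tested genes. S100a11 differed by -0.43 ± 0.20 SE on the log2 scale (p 0.0473, limma adjusted p 0.454), S100a8 by -0.78 ± 0.43 (limma adjusted p 0.523) and S100a4 by 0.72 ± 0.59 (limma adjusted p 0.681). The other 5 genes lay between -0.28 and 0.64, with S100a9 at -0.28 and S100a1 at 0.64. For each of the 8 genes the groups overlapped, when 5.98% of tested genes had groups that did not, and the median was 0.25 beside -0.14 for all tested genes. S100a9 changed direction, to 0.25, without MCAO replicate 4.

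Between MCAO+AS-exos and MCAO, which share the MCAO libraries with the comparison before, again none of the 8 passed, while 6.14% of tested genes did (1.06% higher and 5.08% lower). At an unadjusted p below 0.05 the count was also 0 of 8, beside 25.7% of tested genes. S100a1 differed by 0.84 ± 0.66 SE on the log2 scale (limma adjusted p 0.443), S100a9 by 0.75 ± 0.49 (limma adjusted p 0.351), S100a8 by 0.55 ± 0.43 (limma adjusted p 0.446) and S100a10 by 0.37 ± 0.31 (limma adjusted p 0.481). Values of S100a1 and S100a10 did not overlap between the groups, 2 of 8 genes beside 14.4% of tested genes. S100a4, S100a6, S100a11 and S100a13 lay between -0.28 and 0.15. With a weight for each library by its fit to its group, S100a8 (0.92, limma adjusted p 0.0238) and S100a9 (1.10, limma adjusted p 0.0237) were called higher, when 10.5% of tested genes were.

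Between the exosome groups, which adds no new libraries, none of the 8 passed and 0.286% of tested genes did. Estimates ran in both directions across the family. At an unadjusted p below 0.05 the count was 4 of 8, beside 19.6% of tested genes. S100a8 was 2.54-fold higher in MCAO+AS-exos (log2 difference 1.33 ± 0.43 SE, p 0.00591, limma adjusted p 0.104) and S100a9 2.004-fold (1.03 ± 0.49, p 0.0497, limma adjusted p 0.254). The S100a11 difference was 0.58 ± 0.20 (p 0.00967, limma adjusted p 0.126), and that of S100a13 was -0.66 ± 0.28 (p 0.0291, limma adjusted p 0.204). S100a6 differed by -0.51 ± 0.26 (limma adjusted p 0.292) and S100a4 by -0.59 ± 0.59 (limma adjusted p 0.609), while S100a1 (0.20) and S100a10 (0.13) were close to 0. S100a8 and S100a11 did not overlap between the groups, 2 of 8 genes beside 10.2% of tested genes.

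This last comparison depended on single libraries. MCAO+AS-exos replicate 4 had a mean correlation of 0.915 with its group, against 0.956 to 0.962 for replicates 1 to 3. Libraries of the other groups had 0.881 to 0.929 with theirs, so replicates 1 to 3 were the more unusual. Without MCAO+AS-exos replicate 4, S100a8 passed (log2 difference 1.57, limma adjusted p 0.0343), when 3.52% of tested genes were called higher. Leaving out MCAO+Ctrl-exos replicate 1 as well, S100a8 was called higher (1.76, limma adjusted p 0.0320), and S100a6 (-0.88, limma adjusted p 0.0322) and S100a13 (-0.98, limma adjusted p 0.0426) lower, when 3.31% and 6.86% of tested genes were. Library weights, 2.93 to 6.27 for MCAO+AS-exos replicates 1 to 3, 0.320 for its replicate 4 and 0.406 to 1.43 for the other libraries, gave 5 of 8, with S100a8 (1.58), S100a9 (1.21) and S100a11 (0.61) higher and S100a6 (-0.72) and S100a13 (-0.87) lower, beside 30.1% of tested genes in either direction (11.3% higher and 18.8% lower). Of 9 tested neutrophil markers 1 passed and 8 did not, with log2 differences from -0.46 to 3.90 and a median of 0.84. The marker that passed, Lcn2, which encodes the iron-scavenging protein lipocalin 2, stood at 109.53, 208.98, 319.36 and 43.65 FPKM in MCAO+AS-exos and 16.77, 7.21, 0.25 and 35.28 in MCAO+Ctrl-exos (log2 difference 3.90 ± 0.77 SE, limma adjusted p 0.0392).

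**Figure D3:**
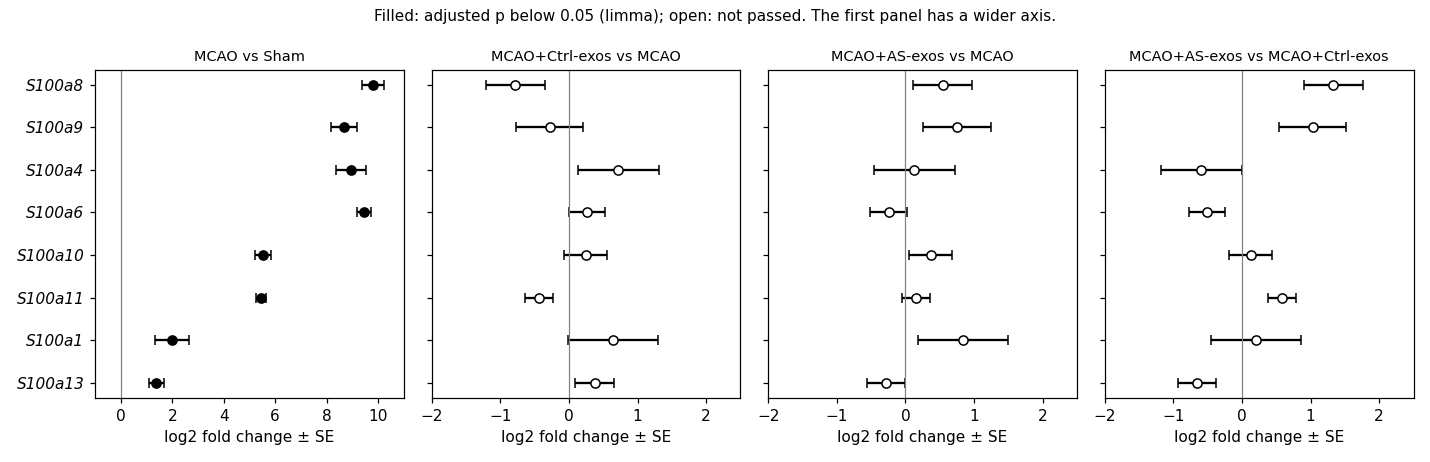
Log2 fold changes (horizontal axis, ± SE) of the 8 S100 genes in the 4 comparisons, filled where the limma adjusted p was below 0.05; the MCAO vs Sham panel has a wider axis. All 8 points are filled in MCAO vs Sham, from 1.38 to 9.81, and all are open in the other panels, where S100a8 reached 1.33 between the exosome groups.

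Profiles of the 8 genes across libraries paired off in the order of the chromosome. For each gene the most alike of the other 7 was taken as the smallest root mean square difference between log2 profiles over the 16 libraries, each centred on its mean. S100a8 and S100a9 were mutual nearest neighbours (0.498 log2 units), as were S100a10 and S100a11 (0.525), S100a4 and S100a6 (0.784) and S100a1 and S100a13 (1.14). The coding genes run S100a1, S100a13, S100a4, S100a6, S100a8, S100a9, S100a11 and S100a10 along chromosome 3, so 3 of the 4 pairs are adjacent genes and S100a4 and S100a6 are parted by S100a5. These points share libraries and depth, and most of each profile is its Sham to MCAO difference, so the likeness is a description.

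**Figure D4:**
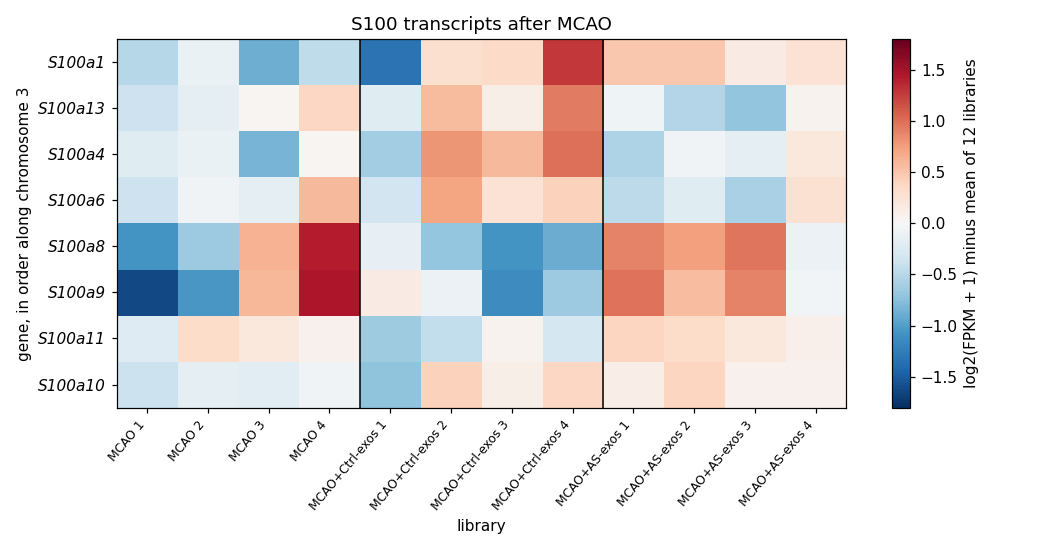
Level of each S100 gene (rows, in chromosome order) in the 12 libraries with MCAO (columns), as log2(FPKM + 1) minus the gene's mean over those libraries (colour, blue low and red high). S100a8 and S100a9 share a pattern, from -1.07 and -1.63 in MCAO replicate 1 to 1.42 and 1.45 in MCAO replicate 4, which S100a10 (-0.39 and -0.06) did not show.

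Among the other tested genes, with predicted gene models left out, the same measure gave neighbours of each S100 gene. Arg1, which encodes arginase 1, was nearest to both S100a8 (0.547) and S100a9 (0.658), with 1.12 ± 0.527 FPKM (SD, n = 4) in Sham, 1238 ± 355 in MCAO, 725 ± 225 in MCAO+Ctrl-exos and 2182 ± 971 in MCAO+AS-exos. Chil3 and H2-Aa followed for S100a8, and Saa3 and Pla2g7 for S100a9. S100a4 was nearest to Apoc2 (0.628), an apolipoprotein gene with 2.17 ± 1.87 FPKM in Sham, 1198 ± 291 in MCAO, 3007 ± 1020 in MCAO+Ctrl-exos and 1532 ± 130 in MCAO+AS-exos, then to Lgals3 and Fxyd5. Fabp5 (0.425), a fatty acid binding protein gene, Ifitm1 and Lgals3 were nearest to S100a6. Lyz1, a lysozyme gene, was nearest to S100a10 (0.500) and next to nearest to S100a11 (0.408, after Mcub at 0.396). Ccr2, the monocyte chemokine receptor gene, and Cnn2 followed for S100a10, and Pqlc3 for S100a11. Mcub stood at 0.0275 FPKM by mean in Sham and 51.3 in MCAO, and Cnn2 at 0.28 and 53.0. For genes so near 0 in Sham, the likeness depends on the 1 added to FPKM before the logarithm. S100a13 was nearest to Rpl36al (0.191), Hint1 and Chchd2, genes expressed in all groups. Milr1 (0.589), Stom and Ddt were nearest to S100a1. For 6 of the 8 genes the nearest of the genes searched was thus outside the family, and S100a8 and S100a9 were each nearest to the other.

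S100b and S100g were scarce. They were in the table and not tested, with at most 2.03 and 0.56 FPKM in the 16 libraries. The 8 further family genes on the list were not found in the table by symbol, so their levels are unknown.

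Of 17 listed genes for partners and cargo of S100 proteins and for the plasminogen system, 15 were in the table and 13 tested: in MCAO against Sham 7 were higher, 1 was lower and 5 did not pass, beside 24.5% higher and 14.8% lower over all tested genes. The median log2 fold change of the 13 was 1.68, beside 0.25 for all tested genes. Anxa2, partner of S100a10, stood at 0.44, 0.57, 2.54 and 0.90 FPKM in Sham and at 572.31, 532.51, 463.05 and 436.95 in MCAO. The groups were far apart, with a log2 fold change of 7.98 ± 0.25 SE (limma adjusted p 3.88e-15). Anxa1, partner of S100a11, differed by 7.52 ± 0.29 and Ahnak, a large scaffold protein that binds the S100A10 and annexin A2 complex, by 5.53 ± 0.28. Plaur, the urokinase receptor gene, differed by 4.03 ± 0.38 and Anxa6 by 2.85 ± 0.43. The myosin genes Myh9 and Myl6, of the motor that S100A4 binds, differed by 1.92 ± 0.38 and 1.68 ± 0.22.

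Neither Cacybp nor Sugt1, whose proteins S100A6 binds, was called higher, and Il1a, the tested cargo of S100A13, was lower. Cacybp, the calcyclin-binding protein gene, stood at 55.5 ± 9.89 FPKM (SD, n = 4) in Sham and 55.9 ± 29.6 in MCAO (log2 fold change -0.11, limma adjusted p 0.810), and Sugt1 differed by -0.62 (limma adjusted p 0.0673). Sugt1 was called lower, by -0.86, under quantile normalization. Il1a fell from 542 ± 166 to 7.88 ± 8.12 FPKM (log2 fold change -6.33 ± 0.56 SE, limma adjusted p 2.83e-08). Plau, Plgrkt and Anxa11 did not pass, Fgf1 (at 0.363 ± 0.256 FPKM in MCAO) and Plat were too low to test, and Anxa11, Fgf1 and Plat were listed at 0 in all Sham libraries.

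Of 8 annexin genes outside that list, whose proteins bind membranes in response to calcium, 6 were in the table and 5 tested, with 3 higher, 1 lower and 1 not passing in MCAO against Sham and a median of 1.08, beside 24.5% higher and 14.8% lower over all tested genes. Anxa5 (5.84 ± 0.52 SE), Anxa4 (3.81 ± 0.25) and Anxa7 (1.08 ± 0.36) were higher, and Anxa3, at 406 ± 41.6 FPKM (SD, n = 4) in Sham and 138 ± 17.1 in MCAO, was lower (-1.55 ± 0.26 SE).

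Receptor genes for extracellular S100 proteins were called in both directions, at shares to be read against 24.5% higher and 14.8% lower over all tested genes. All 11 listed receptor and signalling genes were in the table and 9 were tested, with 3 higher, 3 lower and 3 not passing in MCAO against Sham, and a median log2 fold change of 0.10. Tlr4, receptor of calprotectin, stood at 28.40, 19.26, 18.27 and 16.35 FPKM in Sham and at 8.03, 5.54, 13.41 and 4.16 in MCAO, so that every MCAO library was below every Sham library. Tlr4 differed by -1.38 ± 0.34 SE (limma adjusted p 0.00300) and its co-receptor gene Ly96 by -1.86 ± 0.39 (limma adjusted p 7.75e-04). Nptn was also lower (-0.61 ± 0.21, limma adjusted p 0.0305). The scavenger receptor gene Cd36 (4.41 ± 0.41), Alcam (4.04 ± 0.40) and Tlr2 (1.69 ± 0.34) were higher. Cd14 (0.10), Myd88 (0.50) and Bsg (-0.29) did not pass. Ager, which encodes RAGE, reached at most 4.05 FPKM in any library and was not tested.

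**Figure D5:**
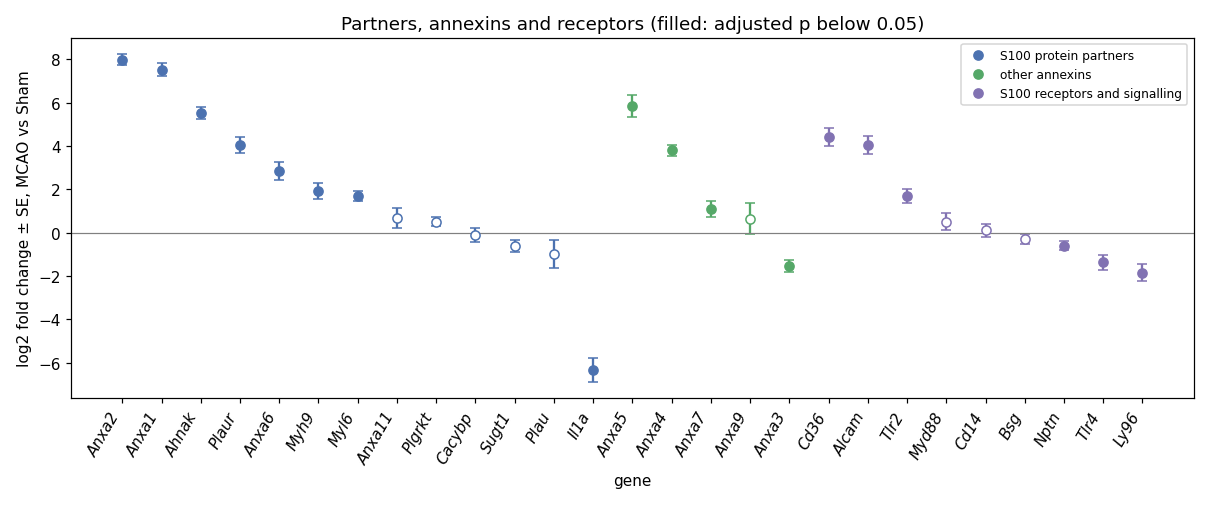
Log2 fold change ± SE in MCAO against Sham (vertical axis) of the tested partner genes, other annexins and receptor genes, filled where the limma adjusted p was below 0.05. Anxa2 (7.98) and Anxa1 (7.52) stand highest, Cacybp (-0.11) and Cd14 (0.10) lie near 0, and Il1a (-6.33), Ly96 (-1.86) and Tlr4 (-1.38) lie below 0.

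The ratio of S100a10 to Anxa2, per length, stood lower in every MCAO than in every Sham library. It was 41.5, 32.2, 9.63 and 6.94 in the Sham libraries, where Anxa2 was under 3 FPKM and no test was made, and 1.15, 1.44, 1.63 and 1.90 in MCAO. It averaged 1.53 ± 0.314 (SD, n = 4) in MCAO, 1.79 ± 0.542 in MCAO+Ctrl-exos and 1.29 ± 0.154 in MCAO+AS-exos. Exact permutation tests gave p = 0.514 (MCAO+Ctrl-exos against MCAO), 0.229 (MCAO+AS-exos against MCAO) and 0.171 (between exosome groups), and adjusted over the 6 ratio tests 0.514, 0.308 and 0.308. Anxa2 itself stood at 770.41, 838.48, 814.13 and 618.93 FPKM in MCAO+AS-exos and at 523.87, 567.05, 486.23 and 503.21 in MCAO+Ctrl-exos. All 4 MCAO+AS-exos libraries were above all libraries of the other 2 MCAO groups, but Anxa2 did not pass against MCAO (0.60 ± 0.25 SE, limma adjusted p 0.132) or MCAO+Ctrl-exos (0.54 ± 0.25, limma adjusted p 0.234). Without MCAO+Ctrl-exos replicate 1, whose ratio was 0.9997, the unadjusted exact p of the ratio between the exosome groups was 0.0286. For the other single-library omissions this exact p was 0.171 to 0.343, and each omission leaves fewer arrangements. None of the 27 tested partner, annexin and receptor genes passed in the 3 comparisons among MCAO groups (limma, adjusted p below 0.05). At an unadjusted p below 0.05 there were 2 of 27 in MCAO+Ctrl-exos against MCAO, 7 in MCAO+AS-exos against MCAO and 9 between the exosome groups, beside 10.9%, 25.7% and 19.6% of all tested genes. Among these, Anxa4 between the exosome groups had the smallest p (log2 difference 0.97 ± 0.25 SE, p 0.00107, limma adjusted p 0.0727). With library weights Anxa2 passed against both groups, by 0.67 (limma adjusted p 0.00634) and 0.63 (limma adjusted p 0.0113), and Anxa1 passed between the exosome groups by 0.96 (limma adjusted p 0.00214). With these weights 10.5% of tested genes were called higher against MCAO and 11.3% between the exosome groups. Of the partner, annexin and receptor genes only Anxa1 and Anxa2 were followed under library weights. With totals made equal, Myh9 was called lower in MCAO+AS-exos than in MCAO (-1.38, limma adjusted p 0.0408).

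Measured transcripts of the S100 genes are short, 417 to 715 bases against a median of 2070 for tested genes. Among the 20% shortest genes, the median log2 difference from the MCAO mean was 0.07 to 0.11 in MCAO+Ctrl-exos replicates 2 to 4 and 0.02 to 0.10 in MCAO+AS-exos, while the median over all genes was -0.14 to -0.22 and -0.04 to -0.24. With trends in length and GC content removed from each library, each of the 8 S100 genes kept its call and direction in the 4 comparisons.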

How the data were processed

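RNA sequencing values of 16 libraries, 4 per group by title, were used as deposited. The authors' deposited values are taken as FPKM, inferred from the naming of RSEM 1.3.1 (beside HISAT2, Bowtie2 and build GRCm39.p6, per the submitters' processing notes) and from totals of 758283 to 983648 that differ between libraries; TPM of a subset is not excluded. The files hold no counts, so depth is unknown and no counting error is given. For the roles of the tools, annotation and filters the sources used here give nothing.

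The S100 genes, gene lists and tests were chosen with earlier results of these data known. Values were taken as log2(FPKM + 1), and the 10846 genes that reached 1 FPKM in 4 or more libraries were tested with limma 3.58.1 in R 4.3.3 (eBayes with trend and robust, 1 model of 4 group means over 16 libraries, two-sided, Benjamini-Hochberg over tested genes). Ratios within a library were tested by exact permutation. Named genes are the 8 S100 genes, any gene of the family, partner, annexin and receptor lists, up to 4 of the highest markers per cell type and those at 0, and the 3 most alike genes per S100 gene, without predicted gene models. Lengths and GC content came from GENCODE M21 by symbol (13494 genes), and gene order and promoters (7 of 8 matched) from RefSeq on GRCm38.p6. The 5 motifs, spelled out in the text, were searched on both strands. On simulated data with 100 of 10846 genes at a log2 fold change of 1 and 100 at 2, 9 to 14 and 57 to 62 were recovered per comparison, and 1.45 to 5.13% of calls were false.

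Alternatives were limma without trend, quantile normalization, equal totals, testing without the filter or with a 5 FPKM filter, 0.1 as pseudocount, a replicate block, library weights, only the 8 libraries compared, removal of length and GC trends, an added log2 fold change of 1, and leaving out libraries.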

Additional observations from a re-analysis of the deposited data

Results flagged for a closer look

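Of 48 sets of 4 libraries checked for a lone value, 2 stood apart, where chance gives about 1 in 20. S100a4 in Sham replicate 4 was 36.27 FPKM, with the other 3 Sham libraries at 1.54 to 2.06, a gap of 0.985 of the range. S100a10 in MCAO+AS-exos replicate 2 was 1129.82 FPKM, with the others at 912.19 to 942.58, a gap of 0.860 of the range.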

How the results depend on the processing

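In MCAO against Sham 8 of 8 S100 genes were called under each alternative except 4, under which S100a1 was lost: no filter (limma adjusted p 0.0540), only the 8 libraries compared (0.0613), without Sham replicate 3 and without MCAO replicate 2. The count was 7 to 8 when libraries were left out in turn. Against MCAO, both exosome groups had 0 of 8 called in every alternative but library weights, which called 2 (2 higher) in MCAO+AS-exos. Between the exosome groups library weights called 5 (3 higher, 2 lower), a fit without both MCAO+AS-exos replicate 4 and MCAO+Ctrl-exos replicate 1 called 3 (1 higher, 2 lower), and leaving out single libraries 0 to 1. Single-library omissions moved the log2 ratio of S100a8 to S100a9 between the exosome groups over 0.19 to 0.41, and that of S100a10 to Anxa2 over -0.67 to -0.29. Directions of uncalled values reversed for S100a10 (-0.052) and Anxa2 (-0.16) in MCAO+Ctrl-exos against MCAO under quantile normalization, for Anxa2 under equal totals (-0.15), length and GC removal (-0.10) and without MCAO replicate 4 (-0.00389), and for S100a9 without that library (0.25). Over single-library omissions these spanned -0.77 to 0.25 for S100a9 and -0.00389 to 0.13 for Anxa2. In MCAO+AS-exos against MCAO S100a4 reversed under quantile normalization (-0.043), equal totals (-0.00181) and without MCAO replicate 3 (-0.055, with 0.26 as the highest over single-library omissions). Between the exosome groups S100a1 (-0.29, with 0.58 as the highest) and S100a10 (-0.13, with 0.25 as the highest) reversed without MCAO+Ctrl-exos replicate 1, and (-0.26 and -0.10) without it and MCAO+AS-exos replicate 4. The cause of these changes was not tested. Over all tested genes, MCAO against Sham gave 2654 higher and 1600 lower, and 2084 and 2164 under quantile normalization, which moved the median from 0.25 to -0.03. MCAO+AS-exos against MCAO gave 115 and 551, 96 and 222 under quantile normalization, 13 and 18 with only the 8 libraries compared, and 1138 and 2817 with library weights. Replicate numbers did not pair libraries (correlations of deviations -0.148 to 0.0923), and the replicate block left 8 of 8 S100 genes called in MCAO against Sham and 0 in the other comparisons.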
